A study of Mus musculus with 36 samples.

Results

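Expression of the 9 transcription factor genes that pattern the dorsal telencephalon, namely Emx1, Emx2, Pax6, Lhx2, Otx1, Otx2, Nr2f1, Nr2f2 and Dmrta2, was followed in embryonic mouse brain carrying reduced levels of the chromatin remodeller gene Chd8. The 9 genes were chosen by name for their role in the tissue, with earlier results of these data known. They are 9 of the 46603 genes in the count tables. All 9 passed the filter on low counts at both stages. Embryos were on a C57Bl/6J background. At E12.5 there were 4 genotypes with 3 libraries each, every library made from the neocortex of 1 embryo: wildtype Chd8+/+, heterozygous Chd8+/-, the mild hypomorph Chd8neo/neo and the severe hypomorph Chd8neo/-. The neo allele carries a neomycin cassette 3′ of exon 3 that diverts splicing, and the null allele lacks exon 3 after recombination by β-actin Cre, whose transgene was later crossed out. Both alleles were present in all cells of the embryo. At E10.5 there were 3 libraries from conditional knockouts (cKO, Sox1-Cre; Chd8f/f) and 3 from Cre-negative controls (Ctrl), each made from RNA of 2 pooled embryos and from telencephalic vesicles. The labels give the Ctrl genotype as a combination of Chd8f/f and Chd8 f/+, while the methods of the study name floxed homozygotes. Cre in the cKO is driven from the pan-neural Sox1 locus, so recombination is not restricted to the dorsal telencephalon. Replicates came from different litters.

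The telencephalon is divided early into dorsal (pallial) and ventral (subpallial) territories, and within the pallium signals from the rostral, dorsomedial and lateral margins set up graded expression of transcription factors in the progenitors of the ventricular zone. Emx1 and Emx2 are homeodomain factors of the pallium, of which Emx2 is graded from caudomedial to rostrolateral and is needed for caudal areas and the hippocampus. Pax6, a paired-type homeodomain factor, has the opposite gradient, keeps the border between pallium and subpallium and acts in radial glia. Lhx2, a LIM-homeodomain factor, specifies cortical identity against the cortical hem and antihem. Otx1 and Otx2 are bicoid-type homeodomain factors of the anterior brain, of which Otx1 persists in the cortical ventricular zone and Otx2 becomes concentrated in the dorsal midline, the diencephalon and the midbrain. Nr2f1 and Nr2f2, also called COUP-TFI and COUP-TFII, are orphan nuclear receptors that act in area formation and caudal identity. Dmrta2, or Dmrt5, is a DM-domain zinc finger factor expressed from caudomedial cortex, where it is required for the hem and hippocampal primordium.

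In the GRCm38 coordinates of the count tables, Emx1 lies on chromosome 6, 85187438-85204462, plus strand, Emx2 on chromosome 19, 59458372-59465357, plus strand, and Pax6 on chromosome 2, 105668900-105697364, plus strand. Lhx2 lies on chromosome 2, 38339281-38369733, plus strand, Otx1 on chromosome 11, 21994764-22002897, minus strand, and Otx2 on chromosome 14, 48657679-48667644, minus strand. Nr2f1 lies on chromosome 13, 78188973-78199757, minus strand, Nr2f2 on chromosome 7, 70351946-70366735, minus strand, and Dmrta2 on chromosome 4, 109978053-109983687, plus strand. Each count is taken over all exons of the gene. Emx2 shares 264 exon bases, 8.79% of its exons, with the antisense gene Emx2os, which held 728 to 1174 counts per library at E12.5 and 1115 to 1526 at E10.5. Nr2f1 shares 123 exon bases, 2.59% of its exons, with the antisense gene A830082K12Rik, which held 2575 to 3724 counts at E12.5 and 1269 to 2004 at E10.5. Counting at E12.5 did not use strand, so reads in these shared bases cannot be told apart between a gene and its antisense partner. The spans of Pax6, Lhx2 and Nr2f2 overlap antisense genes (Pax6os1 for Pax6, Gm27197 and Gm13584 for Lhx2, B130024G19Rik for Nr2f2) without shared exon bases, and Emx1, Otx1, Otx2 and Dmrta2 overlap no gene.

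RefSeq start-site windows (GRCm38.p6, 250 bases before to 50 after a start) were at hand for 8 of the 9 genes, 14 windows in all, and 4 are printed because the expression results turn on their genes: Dmrta2 and Pax6, which were called in Chd8neo/neo, Otx2, whose effect differed between cKO and Chd8neo/-, and Emx2, whose window begins inside the span of Emx2os. Where a gene had several windows, the one with the most motif matches is shown, or the most upstream one where none had a match. Each is written 5′ to 3′ on the strand of the gene. Capitals mark matches to TAATTA, the core bound by many homeodomain proteins including the EMX and LIM types, or to GGATTA on either strand, the core bound by OTX-type homeodomains. A further motif, CCGGAA, the core bound by ETS factors, was searched on both strands in the same way, and no matches to different motifs overlapped.
Dmrta2, chr4:109977775-109978074, plus strand: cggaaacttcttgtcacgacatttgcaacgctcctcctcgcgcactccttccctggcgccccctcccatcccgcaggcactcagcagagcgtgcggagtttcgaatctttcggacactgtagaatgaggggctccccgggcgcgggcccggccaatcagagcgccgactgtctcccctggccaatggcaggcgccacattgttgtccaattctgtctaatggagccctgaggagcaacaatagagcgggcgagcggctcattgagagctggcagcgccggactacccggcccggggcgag
Pax6, chr2:105668646-105668945, plus strand: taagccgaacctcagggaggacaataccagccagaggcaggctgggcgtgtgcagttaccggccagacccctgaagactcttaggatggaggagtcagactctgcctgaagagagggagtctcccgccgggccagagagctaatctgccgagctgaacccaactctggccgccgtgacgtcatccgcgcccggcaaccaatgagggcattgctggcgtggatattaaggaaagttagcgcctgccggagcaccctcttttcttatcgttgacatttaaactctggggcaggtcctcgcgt
Otx2, chr14:48665060-48665359, minus strand: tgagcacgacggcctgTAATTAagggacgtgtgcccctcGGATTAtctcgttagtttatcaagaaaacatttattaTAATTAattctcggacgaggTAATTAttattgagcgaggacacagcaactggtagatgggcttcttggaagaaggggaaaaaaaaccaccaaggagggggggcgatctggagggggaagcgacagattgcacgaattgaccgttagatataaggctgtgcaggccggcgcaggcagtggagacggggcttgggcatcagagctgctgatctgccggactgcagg
Emx2, chr19:59458440-59458739, plus strand: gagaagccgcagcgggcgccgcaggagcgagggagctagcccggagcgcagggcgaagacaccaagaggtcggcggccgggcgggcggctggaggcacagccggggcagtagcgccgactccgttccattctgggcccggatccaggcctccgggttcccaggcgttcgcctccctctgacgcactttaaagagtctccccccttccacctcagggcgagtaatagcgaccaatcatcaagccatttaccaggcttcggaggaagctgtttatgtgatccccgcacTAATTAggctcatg

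The Dmrta2 and Pax6 windows held no match to the 3 motifs, the Otx2 window held 3 matches to TAATTA and 1 to GGATTA, and the Emx2 window held 1 match to TAATTA. Over the 14 windows, TAATTA was found in 3 (of Otx2 and Emx2), against 5.29% of all 32851 windows, and GGATTA in 2 (of Otx2 and Nr2f2), against 7.06%. CCGGAA was found in 0 of the 14, against 14.9% of all windows. The 14 windows, none of them of Otx1 and several of them of Otx2, were rich in CpG dinucleotides. Their median was 17 per window against 7 over all windows, with 26 in the Dmrta2 window. These matches describe the letters of the windows and carry no measurement of binding.

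Sequencing depth per library ranged from 38774591 to 61051667 counts in the E12.5 set and from 49632937 to 68488879 counts in the E10.5 set. Levels are given as CPM, the library-size-scaled count after TMM within a stage, as mean ± SD of 3 libraries, and replicate numbers are those of the labels. Chd8 itself was measured in Chd8+/+ at 237, 235 and 239 CPM. In Chd8+/- it was 165, 170.2 and 165 CPM (log2 fold change -0.51, adjusted p = 0.000138), in Chd8neo/neo it was 213, 203 and 211 CPM (-0.18, adjusted p = 0.0201), and in Chd8neo/- it was 158, 147 and 142 CPM (-0.67, adjusted p = 8.59e-07). At E10.5 it was 160.0, 168 and 184 CPM in Ctrl and 121, 125.3 and 116 CPM in cKO (-0.50, adjusted p = 0.00109), all by edgeR. The counts cover the whole gene, including exons outside the deleted or disrupted part, so they do not measure intact transcript alone. Every group with a mutated allele lay below its control without overlap. Total Chd8 counts were higher in Chd8neo/neo than in Chd8+/- (0.33, edgeR adjusted p = 0.00897). The study reported the other order for Chd8 transcripts by RT-PCR in younger embryos and for full-length CHD8 protein at E12.5. Both were reduced further in Chd8neo/neo than in Chd8+/-. Sox1, whose locus carries the Cre, was at 60.8 to 71.1 CPM in cKO and 96.0 to 108 CPM in Ctrl (-0.63, adjusted p = 0.000537).

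One library stood apart at E12.5. Chd8+/- replicate 2 had a summed level of 257 CPM over the 9 diencephalon and hypothalamus markers, against 52.2 to 126 CPM in the other 11 libraries, and 7 of the 9 markers were highest there. Its summed level of the 8 mesenchyme and meninges markers was 1127 CPM against 523 to 807 CPM, with 7 of 8 highest there. Several values that rest on this library are given with and without it. The labels give the tissue as cortex. Emx1, itself 1 of the 9 genes, was at 35.8 to 69.3 CPM in all 12 libraries. All 11 markers of the ventral telencephalon were also detected in every one of them, with sums of 667 to 866 CPM. At E10.5 those sums were 35.6 to 62.0 CPM in Ctrl and 29.3 to 37.4 CPM in cKO. In bulk tissue, fewer cells of a type and less RNA per cell cannot be told apart. Libraries with more Xist than Y-linked reads numbered 1 of 3 in Chd8+/+, 1 in Chd8+/-, 2 in Chd8neo/neo, 0 in Chd8neo/-, 2 in Ctrl and 3 in cKO. Each E10.5 library pools 2 embryos, so such a library can hold both sexes. Xist was at 708 to 1069 CPM in cKO and at 1779 and 2141 CPM in those 2 Ctrl libraries.

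In control tissue all 9 genes were expressed at both stages. Levels can be compared between genes only per kilobase of exon, on a scale shared by the 6 control libraries. At E12.5 Lhx2 ranked highest at 97.9 ± 5.10 CPM per kilobase, followed by Nr2f1 (61.9 ± 3.504), Emx2 (40.1 ± 1.45), Nr2f2 (35.4 ± 1.94) and Emx1 (23.6 ± 1.12). None of these neighbours overlapped. Otx1 (14.95 ± 1.81) and Otx2 (14.8 ± 0.648) overlapped each other, as did Dmrta2 (13.5 ± 0.972) and Pax6 (13.5 ± 0.446) at the low end. At E10.5 Lhx2 (59.9 ± 7.80) again ranked highest, followed by Emx2 (50.1 ± 4.22), with Otx2 (34.5 ± 3.57) and Nr2f1 (31.4 ± 3.60) overlapping below them. Dmrta2 (22.9 ± 1.79) stood above Otx1 (19.7 ± 0.782). Otx1, Nr2f2 (16.3 ± 4.36), Pax6 (14.96 ± 1.80) and Emx1 (13.4 ± 3.37) each overlapped the next gene in that order. The exon length used is that of all annotated exons of a gene together, which lowers the value of genes with many transcript forms.

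**Figure D1:**
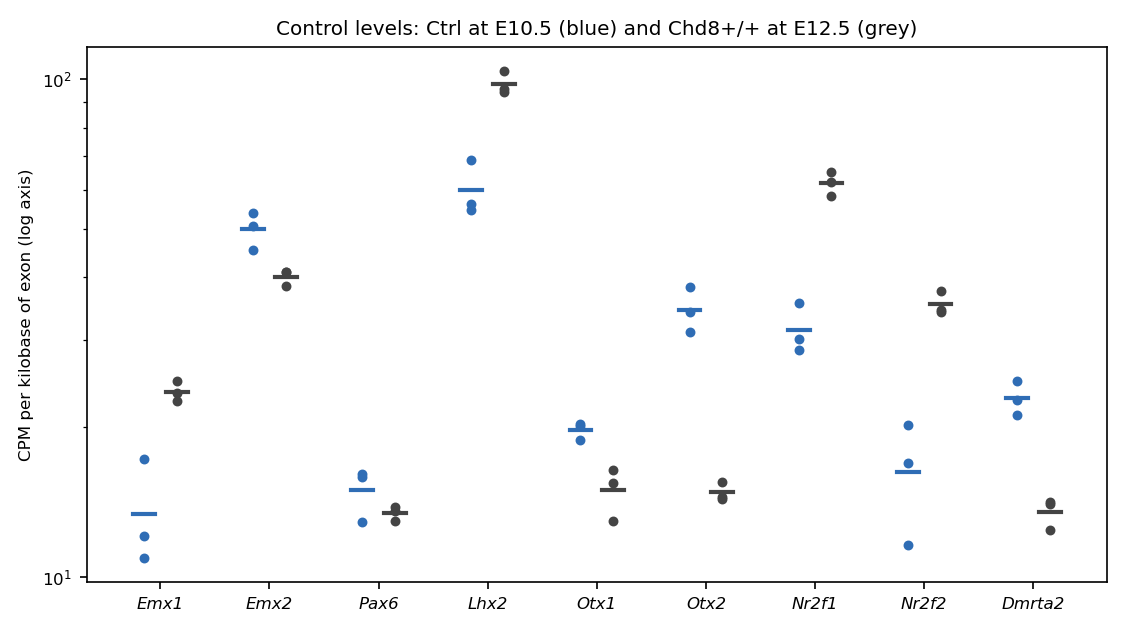
Level in CPM per kilobase of exon (log axis) of each gene in the 3 Ctrl libraries at E10.5 (blue points) and the 3 Chd8+/+ libraries at E12.5 (grey points), with the mean as a bar. Emx1, Lhx2, Nr2f1 and Nr2f2 lie higher at E12.5, Emx2, Otx1, Otx2 and Dmrta2 lie lower, and the Pax6 points of the stages overlap.

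Between the control groups of the stages, 8 of the 9 genes differed, 4 in each direction, where 67.5% of the 18580 genes tested differed by edgeR's quasi-likelihood test. The count for the 9 genes thus lies against a background in which most genes differ. Higher at E12.5 were Nr2f2 (79.1 CPM in Ctrl against 172 CPM in Chd8+/+, log2 fold change 1.12, SE 0.20, edgeR adjusted p = 0.00272), Nr2f1 (149 against 294 CPM, log2 fold change 0.98, SE 0.083, edgeR adjusted p = 7.08e-07), Emx1 (29.3 against 51.5 CPM, log2 fold change 0.81, SE 0.15, edgeR adjusted p = 0.00121) and Lhx2 (263 against 430.0 CPM, log2 fold change 0.71, SE 0.091, edgeR adjusted p = 2.33e-05). Lower were Otx2 (117 against 50.3 CPM, log2 fold change -1.22, SE 0.078, edgeR adjusted p = 6.13e-08), Dmrta2 (66.9 against 39.6 CPM, log2 fold change -0.76, SE 0.080, edgeR adjusted p = 4.85e-06), Otx1 (107 against 81.1 CPM, log2 fold change -0.40, SE 0.083, edgeR adjusted p = 0.00106) and Emx2 (150.3 against 120.4 CPM, log2 fold change -0.32, SE 0.069, edgeR adjusted p = 0.00147). Paralogues thus moved apart in the Emx pair and together in the Otx and Nr2f pairs. Pax6 was at 175 CPM in Ctrl and 158 CPM in Chd8+/+ (log2 fold change -0.15, SE 0.082, edgeR adjusted p = 0.124) and was the member whose libraries overlapped between the stages. Without Ctrl replicate 2 its value was -0.24 (adjusted p = 0.00523), and all 9 genes were then called. Age, dissection, pooling, control genotype and sequencing run all differ between these groups and cannot be told apart.

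**Figure D2:**
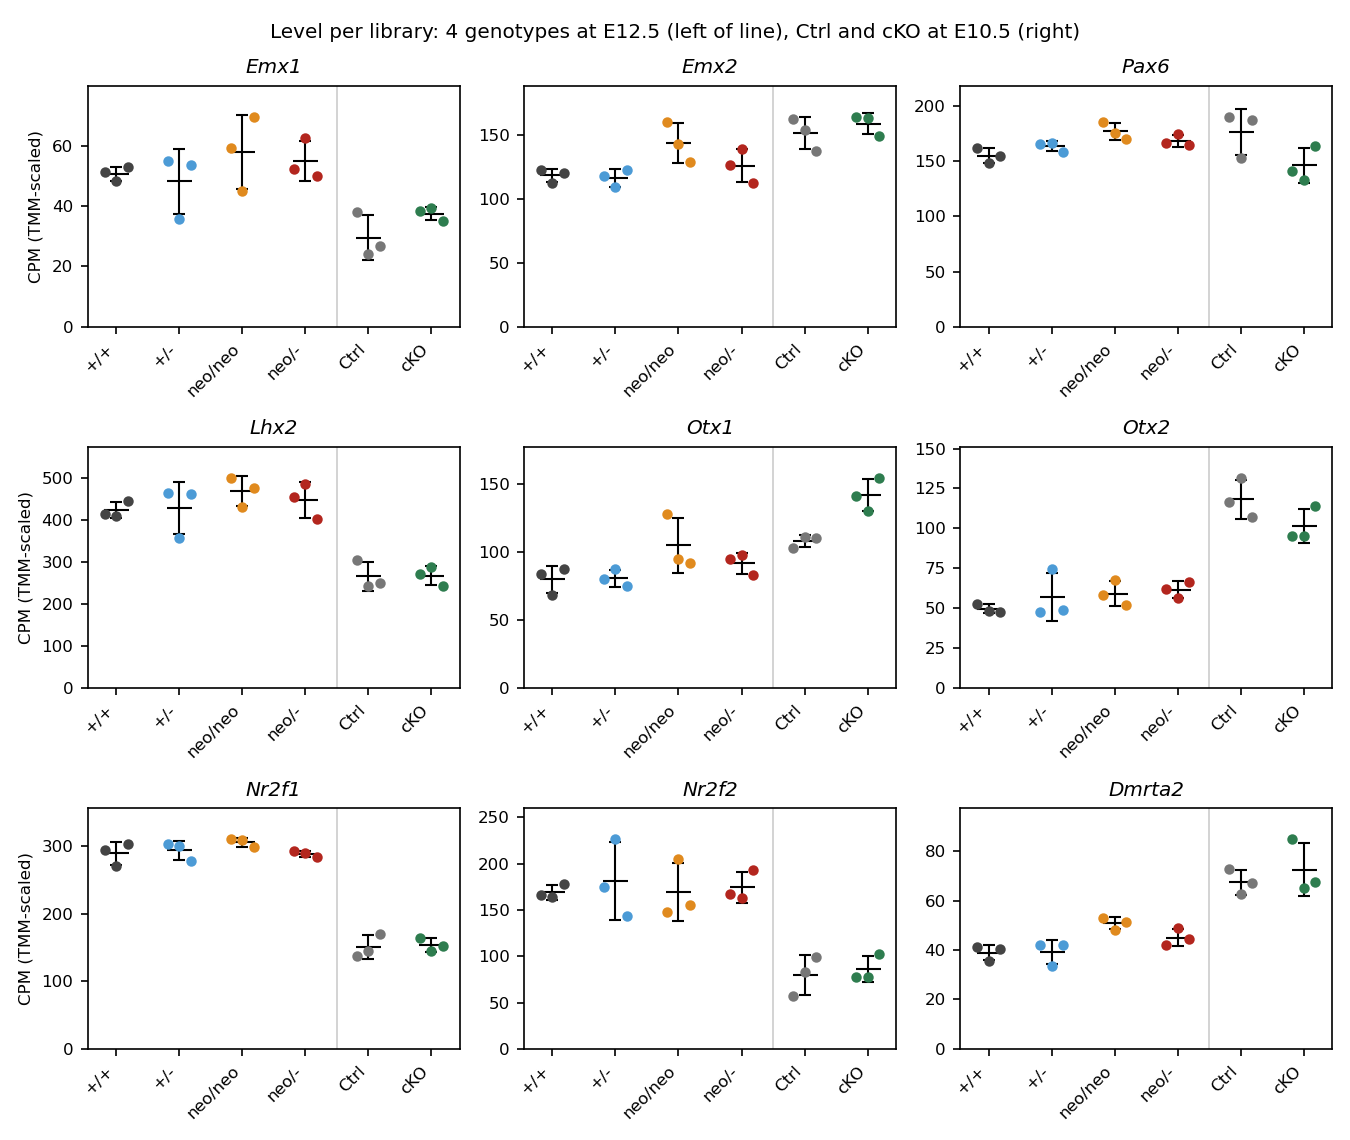
TMM-scaled CPM of each gene in every library, for Chd8+/+, Chd8+/-, Chd8neo/neo and Chd8neo/- at E12.5 (left of the grey line) and Ctrl and cKO at E10.5 (right), with bars for the mean ± SD of 3 libraries. The 3 Chd8neo/neo points lie above the 3 Chd8+/+ points for Emx2, Pax6, Otx1 and Dmrta2, and the cKO points lie above the Ctrl points for Otx1. How many of all genes separate in this way was not counted.

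To ask how the patterning genes responded to reduced Chd8 at E12.5, each mutant was set against the same 3 Chd8+/+ libraries, so the 3 comparisons are not independent of each other. In Chd8neo/neo, Pax6 and Dmrta2 were upregulated, 2 of 9 genes, where 8.16% of the 18810 genes tested were called. The median log2 fold change of the 9 genes was 0.19, against 0.0053 over all genes tested. In Chd8neo/-, 0 of 9 genes passed edgeR's test, where 11.5% of all genes did, and 2 of the 9 (Pax6 and Dmrta2) had an unadjusted p under 0.05, as did 4991 of the 18810 genes tested, and DESeq2 also called 0. The median was 0.11 against 0.0011 over all genes. In Chd8+/-, 0 of 9 genes were called, where 0.0213% of all genes were, 0 had an unadjusted p under 0.05 (1190 over all genes), and DESeq2 called 0. The median was 0.019 against 0.0012, and no gene separated Chd8+/- from Chd8+/+ without overlap.

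**Figure D3:**
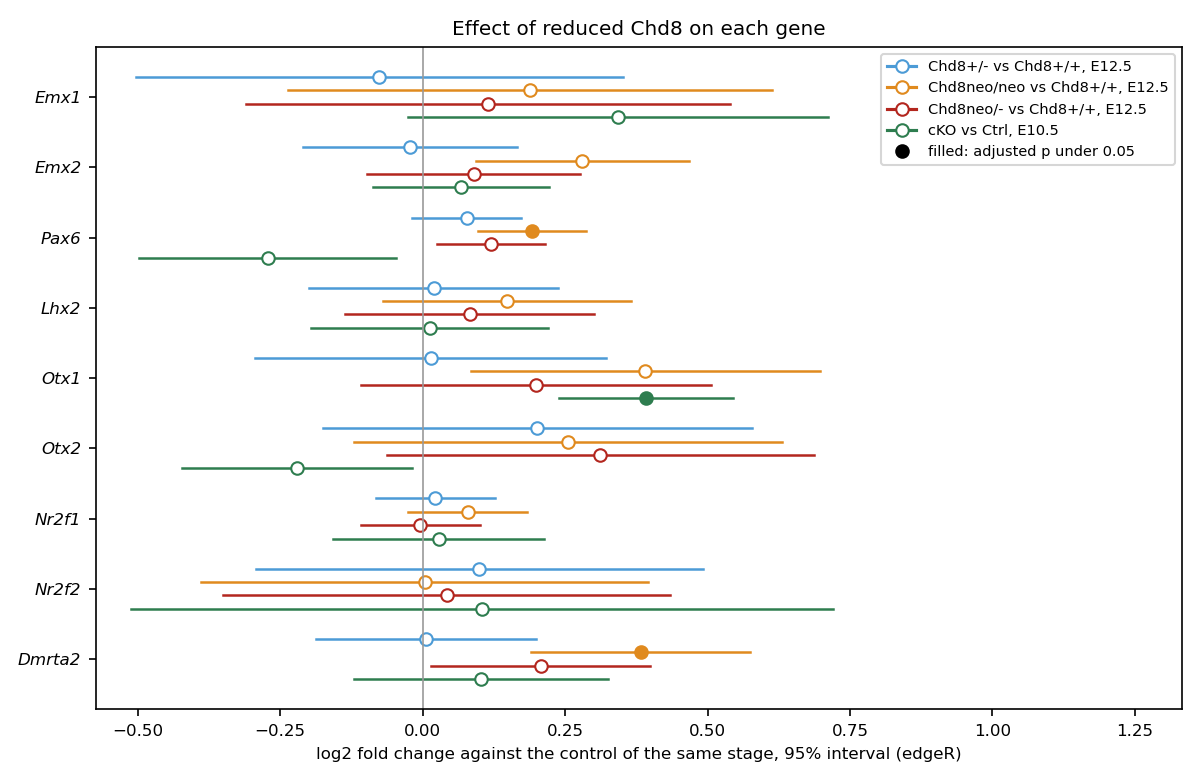
Log2 fold change of each gene against the control of the same stage, with its 95% interval from edgeR, for Chd8+/- (blue), Chd8neo/neo (orange), Chd8neo/- (red) and cKO (green); filled points have an adjusted p under 0.05. The filled points are Pax6 and Dmrta2 in Chd8neo/neo and Otx1 in cKO, and the cKO points of Pax6 and Otx2 lie below 0 where the E12.5 points lie above it.

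Pax6 was measured at 162, 148 and 155 CPM in Chd8+/+, at 166, 166 and 159 CPM in Chd8+/-, at 185, 176 and 170.3 CPM in Chd8neo/neo and at 166, 175 and 165 CPM in Chd8neo/-. Every library of both hypomorphs lay above every wildtype library, while Chd8+/- overlapped wildtype. The rise in Chd8neo/neo, from 155 ± 6.76 CPM to 177 ± 7.62 CPM, was small but larger than the spread between libraries (log2 fold change 0.19, SE 0.044, edgeR adjusted p = 0.0199, 95% interval 0.10 to 0.29). For Chd8neo/- the value was 169 ± 5.32 CPM (log2 fold change 0.12, SE 0.044, edgeR adjusted p = 0.0974), and for Chd8+/- it was 164 ± 4.38 CPM (log2 fold change 0.077, SE 0.044, edgeR adjusted p = 0.824). The order of the means was Chd8neo/neo, Chd8neo/-, Chd8+/-, Chd8+/+, and the libraries of Chd8neo/neo overlapped those of Chd8neo/-, which overlapped those of Chd8+/-. Setting Chd8neo/neo directly against Chd8+/- gave no overlap and log2 fold change 0.11, SE 0.044, edgeR adjusted p = 0.138. The Chd8neo/neo call was lost without Chd8+/+ replicate 2 (adjusted p = 0.0772), without Chd8neo/neo replicate 1 (0.0970) or replicate 2 (0.0638), and when the 2 groups were fitted alone (0.0795).

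Dmrta2 was measured at 41.0, 35.5 and 40.4 CPM in Chd8+/+, at 42.0, 33.4 and 42.1 CPM in Chd8+/-, at 52.9, 48.2 and 51.5 CPM in Chd8neo/neo and at 41.8, 48.8 and 44.3 CPM in Chd8neo/-. Chd8neo/neo and Chd8neo/- both lay above wildtype without overlap, and Chd8+/- spanned the wildtype range. In Chd8neo/neo the level rose from 39.0 ± 3.03 CPM to 50.8 ± 2.41 CPM (log2 fold change 0.38, SE 0.089, edgeR adjusted p = 0.0220, 95% interval 0.19 to 0.57). Of the 9 genes it was the only one called between Chd8neo/neo and Chd8+/- (log2 fold change 0.38, SE 0.089, edgeR adjusted p = 0.0329), a comparison in which 5.28% of all genes were called. Emx2, Pax6, Otx1 and Dmrta2 did not overlap there, and how many of all genes did not overlap was not counted. With the replicate number as a block the Dmrta2 value was 0.38 (edgeR adjusted p = 0.0432). Without Chd8+/- replicate 2, where Dmrta2 was lowest of all 12 libraries, it was 0.27 (adjusted p = 0.0617). That call was also lost without any other Chd8+/- library, Chd8neo/neo replicate 1 or 2, or Chd8neo/- replicate 3 (adjusted p 0.0504 to 0.125), with the sex-linked covariate (0.0643) and with the 2 groups alone (0.0941). Chd8neo/- lay between Chd8neo/neo and wildtype at 44.99 ± 3.54 CPM (log2 fold change 0.21, SE 0.089, edgeR adjusted p = 0.154) and overlapped Chd8neo/neo. The call against wildtype was lost without Chd8+/+ replicate 2 (adjusted p = 0.0870) or without Chd8neo/neo replicate 1 (0.0866).

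The Emx genes did not pass the test in any E12.5 mutant. Emx2 was measured at 122.8, 113 and 120.1 CPM in Chd8+/+, at 118, 109 and 122.99 CPM in Chd8+/-, at 160.4, 143 and 129 CPM in Chd8neo/neo and at 126, 139 and 113 CPM in Chd8neo/-. The Chd8neo/neo libraries lay above all wildtype and Chd8+/- libraries (log2 fold change 0.28, SE 0.086, edgeR adjusted p = 0.0654 against wildtype, 0.30, adjusted p = 0.0622 against Chd8+/-), and Chd8neo/- overlapped wildtype (0.089, adjusted p = 0.564). DESeq2 called the Chd8neo/neo value against wildtype (adjusted p = 0.0157), as did edgeR without Chd8neo/neo replicate 3 (0.0184) or Chd8neo/- replicate 3 (0.0480). Without Chd8+/- replicate 2 the Chd8neo/neo value against Chd8+/- was 0.25 (edgeR adjusted p = 0.146). Emx1 was measured at 51.2, 48.2 and 52.8 CPM in Chd8+/+, at 54.9, 35.8 and 53.7 CPM in Chd8+/-, at 59.1, 45.1 and 69.3 CPM in Chd8neo/neo and at 52.1, 62.6 and 49.997 CPM in Chd8neo/-. All mutant groups overlapped wildtype (log2 fold changes 0.19, adjusted p = 0.591 in Chd8neo/neo, 0.11, adjusted p = 0.767 in Chd8neo/- and -0.076, adjusted p = 0.985 in Chd8+/-). Emx1 was lowest in Chd8+/- replicate 2, and without that library the Chd8+/- value was 0.10.

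Lhx2 and the nuclear receptor genes did not separate any mutant from wildtype. Lhx2 was measured at 414, 410.1 and 445 CPM in Chd8+/+, at 465, 358 and 463 CPM in Chd8+/-, at 499, 430.0 and 478 CPM in Chd8neo/neo and at 455, 487 and 402 CPM in Chd8neo/-, with overlap throughout. Its log2 fold change was 0.15, adjusted p = 0.390 in Chd8neo/neo, 0.082, adjusted p = 0.663 in Chd8neo/- and 0.019, adjusted p = 0.993 in Chd8+/-. Nr2f1 was measured at 295, 271 and 303 CPM in Chd8+/+, at 303, 301 and 278.04 CPM in Chd8+/-, at 310.1, 309 and 298 CPM in Chd8neo/neo and at 293, 289 and 283.7 CPM in Chd8neo/-. Its intervals were narrow, -0.026 to 0.18 on the log2 scale in Chd8neo/neo, -0.11 to 0.10 in Chd8neo/- and -0.082 to 0.13 in Chd8+/-, and all included 0. Nr2f2 was measured at 166, 163 and 178 CPM in Chd8+/+, at 175, 226 and 143 CPM in Chd8+/-, at 148, 205 and 155 CPM in Chd8neo/neo and at 167, 163 and 193 CPM in Chd8neo/-. Its highest value of the 12 libraries was in Chd8+/- replicate 2, and its intervals were wide (-0.39 to 0.40 in Chd8neo/neo, -0.35 to 0.43 in Chd8neo/- and -0.29 to 0.49 in Chd8+/-).

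The Otx genes were not called at E12.5. Otx1 was measured at 83.8, 68.6 and 87.0 CPM in Chd8+/+, at 80.2, 87.0 and 74.6 CPM in Chd8+/-, at 128, 94.4 and 91.8 CPM in Chd8neo/neo and at 94.3, 97.7 and 82.8 CPM in Chd8neo/-. The Chd8neo/neo libraries did not overlap wildtype, with the highest value in replicate 1 (log2 fold change 0.39, SE 0.14, edgeR adjusted p = 0.111), and only DESeq2 called the difference (adjusted p = 0.0136). In Chd8neo/- the value was 0.20, adjusted p = 0.407 and the libraries overlapped wildtype. Otx2 was measured at 52.8, 48.1 and 47.6 CPM in Chd8+/+, at 47.8, 74.5 and 48.5 CPM in Chd8+/-, at 58.2, 67.3 and 51.8 CPM in Chd8neo/neo and at 61.8, 56.1 and 66.6 CPM in Chd8neo/-. All 3 Chd8neo/- libraries lay above wildtype (log2 fold change 0.31, SE 0.17, edgeR adjusted p = 0.277), and the difference was called when the 2 groups were fitted alone (adjusted p = 0.00704) or without Chd8+/- replicate 2 (0.0335). The 3 libraries with the highest Otx2, Chd8+/- replicate 2, Chd8neo/neo replicate 2 and Chd8neo/- replicate 3, were also the 3 with the highest summed diencephalon and hypothalamus markers, at 257, 126 and 94.8 CPM. Chd8neo/- replicates 1 and 2 had sums of 77.0 and 68.3 CPM of these markers, against 66.9 to 74.4 CPM in Chd8+/+. The 8 hem, choroid plexus and dorsal midline markers summed to 228 to 254 CPM in Chd8neo/- and 135 to 214 CPM in Chd8+/+. In the 3 libraries with the highest Otx2 those sums were 216, 175 and 254 CPM. The part of either marker list in the Otx2 values was not tested. Without Chd8+/- replicate 2 the log2 fold change of Chd8+/- against wildtype was -0.040 for Otx2, -0.044 for Otx1, 0.13 for Lhx2 and -0.090 for Nr2f2, and again 0 genes were called.

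**Figure D4:**
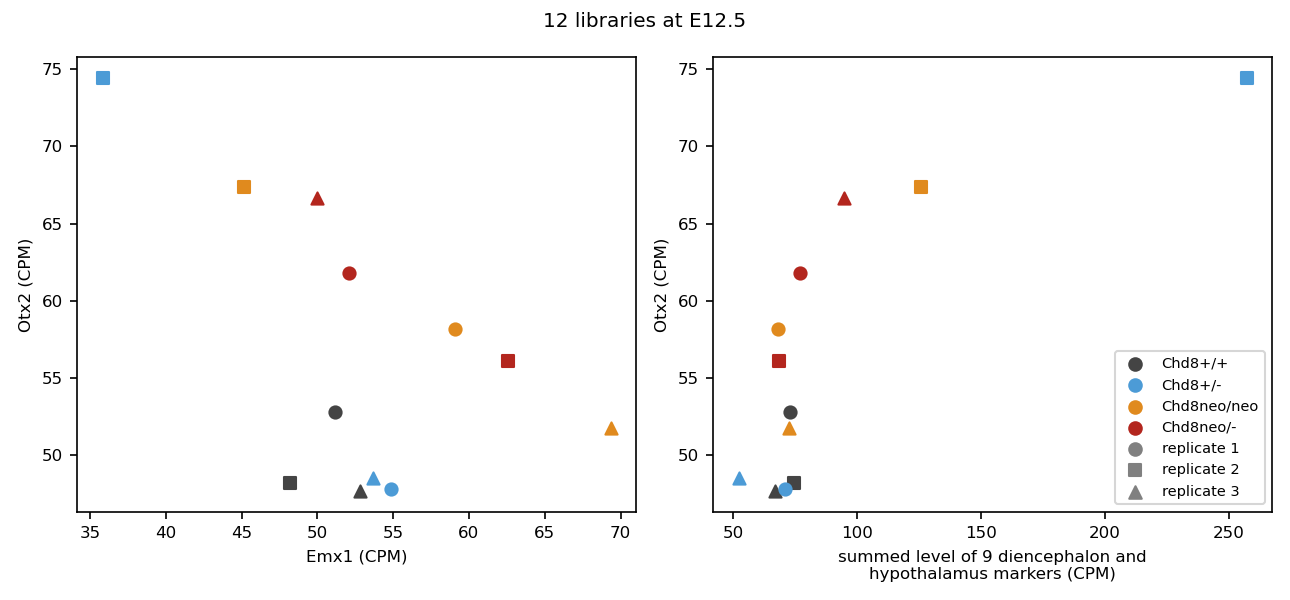
Otx2 in CPM (vertical axis) against Emx1 in CPM (left panel) and against the summed CPM of the 9 diencephalon and hypothalamus markers (right panel) in the 12 E12.5 libraries, coloured by genotype and shaped by replicate number. Chd8+/- replicate 2 has the highest Otx2 (74.5 CPM), the lowest Emx1 (35.8 CPM) and the highest marker sum (257 CPM).

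The hypomorphs were also set against each other. Between Chd8neo/- and Chd8neo/neo, 0 of 9 genes were called by edgeR or DESeq2, where 0.0159% of all genes were, and 1 of the 9 had an unadjusted p under 0.05 (1585 over all genes), Emx2, which was lower in Chd8neo/- (-0.19, adjusted p = 0.587). The differences for the genes called in Chd8neo/neo were -0.071 (95% interval -0.17 to 0.024) for Pax6 and -0.18 (-0.37 to 0.015) for Dmrta2, so no difference between the hypomorphs was shown for the genes called in only one of them. Between Chd8neo/- and Chd8+/-, 0 of 9 genes were called by edgeR or DESeq2, where 5.43% of all genes were, and 1 of the 9 had an unadjusted p under 0.05 (4232 over all genes), Dmrta2 (0.20, adjusted p = 0.204). Without Chd8+/- replicate 2 this Dmrta2 value was 0.094 (edgeR adjusted p = 0.523).

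At E10.5, 1 of the 9 genes was called between cKO and Ctrl, Otx1, where 11.4% of the 18435 genes tested were called. The median log2 fold change of the 9 genes was 0.068 against -0.0019 over all genes. Sox1-Cre was present in cKO only, so its part cannot be told apart from that of Chd8 loss. A sex-linked covariate was not fitted at this stage. Otx1 was measured at 103, 111 and 110.0 CPM in Ctrl and 141, 130.3 and 154 CPM in cKO, without overlap. Its level rose from 108 ± 4.59 CPM to 142 ± 11.8 CPM (log2 fold change 0.39, SE 0.069, edgeR adjusted p = 0.00611, 95% interval 0.24 to 0.54). It stayed past the threshold in all 10 alternatives, including the leaving out of each library, with an adjusted p of at most 0.0287. Its partner Otx2 was measured at 116, 131 and 107 CPM in Ctrl and 95.1, 95.4 and 114 CPM in cKO. The means lay on the other side, with 1 cKO library inside the Ctrl range (log2 fold change -0.22, SE 0.091, edgeR adjusted p = 0.148).

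Pax6 was measured at 189.6, 152 and 187 CPM in Ctrl and 141, 133 and 164 CPM in cKO, with Ctrl replicate 2 inside the cKO range (log2 fold change -0.27, SE 0.10, edgeR adjusted p = 0.114). It was called as lower by DESeq2 (adjusted p = 0.0458), with the replicate number as a block (0.0221) and without Ctrl replicate 2 (0.0163). Emx1 was measured at 37.9, 24.1 and 26.7 CPM in Ctrl and 38.4, 39.2 and 35.0 CPM in cKO, and Ctrl replicate 1 was the library that overlapped (log2 fold change 0.34, SE 0.16, edgeR adjusted p = 0.213). Without that library its log2 fold change was 0.56 (adjusted p = 0.00380). Ctrl replicate 1 also held the highest sum of the 11 downstream pallial genes at this stage, 553 CPM against 377 to 489.6 CPM in the other 5 libraries. The sums of the ventral telencephalon markers (62.0 CPM) and of the neuronal markers (338 CPM) were likewise highest there. The part of these lists in the Emx1 value was not tested.

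The other genes overlapped between cKO and Ctrl. Emx2 was measured at 163, 154 and 138 CPM in Ctrl and 164, 163 and 149.5 CPM in cKO (0.068, adjusted p = 0.578). Dmrta2 was measured at 72.8, 62.6 and 67.1 CPM in Ctrl and 84.8, 65.2 and 67.6 CPM in cKO (0.10, adjusted p = 0.552). The interval of Dmrta2, -0.12 to 0.33, includes 0 and overlaps that of its rise in Chd8neo/neo, 0.19 to 0.57. The difference between these 2 effects was not tested. Between the cKO effect and the Chd8neo/- effect of Dmrta2 the difference was -0.097 (edgeR adjusted p = 0.742). Lhx2 was measured at 304, 243 and 249 CPM in Ctrl and 272, 288 and 243 CPM in cKO (95% interval -0.20 to 0.22). Nr2f1 was measured at 137, 145 and 170.4 CPM in Ctrl and 165, 144 and 152 CPM in cKO (-0.16 to 0.21), and Nr2f2 at 56.8, 83.3 and 99.4 and 77.4, 78.0 and 102 CPM (-0.51 to 0.72). Nr2f2 had the widest interval of the 9 at this stage, with a Ctrl spread from 56.8 to 99.4 CPM. Mesenchyme and meninges markers were higher in cKO, 992 to 1156 CPM summed against 782 to 871 CPM in Ctrl, and 3 of the 8 were called (Col1a2, Col3a1 and Pdgfra). Their part in the Otx1 value was not tested.

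Whether the cKO changed the genes differently from the severe hypomorph was tested as the difference of the 2 effects in a joint fit of 12 libraries. Otx2 passed, 1 of 9, where 5.49% of the 19384 genes tested passed. Its cKO effect was -0.22 and its Chd8neo/- effect 0.31 on the log2 scale, a difference of -0.52 (SE 0.12, 95% interval -0.78 to -0.27, edgeR adjusted p = 0.0246). Pax6 gave -0.27 in cKO and 0.11 in Chd8neo/-, a difference of -0.39 (adjusted p = 0.0771) that was called by DESeq2 (0.0397) and without Ctrl replicate 2 (0.00755) or cKO replicate 3 (0.0319). Emx1 gave 0.24 (adjusted p = 0.551) and was called without Ctrl replicate 1 (0.47, adjusted p = 0.0419). The Otx2 call was lost without Chd8+/+ replicate 2 or 3, Chd8neo/- replicate 1 or 3, cKO replicate 2, or Ctrl replicate 1 (adjusted p 0.0529 to 0.0798). Chd8neo/- replicate 3 is the library ranking 3 of 12 by its diencephalon and hypothalamus marker sum. By its hem, choroid plexus and dorsal midline marker sum it ranks highest, at 254 CPM. The part of either marker list in the Otx2 difference was not tested. Age, dissection, allele, pooling and the germline or conditional loss of Chd8 differ together between these effects and cannot be told apart.

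Relatives of the 9 genes and the rest of the patterning network were examined as lists, whose counts stand against 8.16% of all genes called in Chd8neo/neo, 11.5% in Chd8neo/-, 0.0213% in Chd8+/-, 11.4% in cKO and 67.5% between the stages. Of 7 family members (Crx, Dmrta1, Dmrt3, Lhx9, Nr2f6, Vax1 and Vax2), 5 were tested. In Chd8neo/neo 1 rose, Nr2f6, an orphan nuclear receptor related to Nr2f1 (9.09 to 12.2 CPM, log2 fold change 0.43, SE 0.097, edgeR adjusted p = 0.0184), and the list median was 0.26. In Chd8neo/-, Chd8+/- and cKO 0 of the 5 were called by edgeR (1, 0 and 0 at an unadjusted p under 0.05), with medians of 0.066, -0.058 and 0.023. Of 15 telencephalic field factors, 14 were tested at E12.5. In Chd8neo/neo Sox2, a factor of neural progenitors, rose (223 to 271 CPM, log2 fold change 0.29, SE 0.069, edgeR adjusted p = 0.0251), with a list median of 0.14, and in Chd8neo/- and Chd8+/- 0 were called (2 and 0 at an unadjusted p under 0.05, medians 0.054 and 0.00053). In cKO all 15 were tested and Zic2, a zinc finger factor of the dorsal midline, rose (70.2 to 89.7 CPM, log2 fold change 0.35, SE 0.093, edgeR adjusted p = 0.0365), with a list median of 0.079. Between the stages, 2 family members were higher and 2 lower at E12.5, and 5 field factors were higher and 5 lower.

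The signalling centres that lay out the telencephalon secrete FGF, WNT and BMP ligands. Of 21 ligands and effectors, 20 were tested at E10.5, of which 5 rose and 1 fell, where 11.4% of all genes were called, with a median of 0.17. Wnt8b, a Wnt ligand of the cortical hem, rose (162 to 241 CPM, log2 fold change 0.57, SE 0.085, edgeR adjusted p = 0.00300), as did Bmp7, a dorsal midline ligand (58.1 to 84.4 CPM, log2 fold change 0.54, SE 0.083, edgeR adjusted p = 0.00312), and Etv4, an ETS factor induced by FGF signalling (25.02 to 32.7 CPM, log2 fold change 0.39, SE 0.081, edgeR adjusted p = 0.0135). Fgf8, the ligand of the rostral patterning centre, fell (14.04 to 9.40 CPM, log2 fold change -0.58, SE 0.10, edgeR adjusted p = 0.00690). Of the same list at E12.5, 0 of 21 were called in Chd8neo/neo (5 at an unadjusted p under 0.05, median 0.16) and in Chd8+/- (0, -0.013), and 1 in Chd8neo/-, Wnt5a, another ligand of the hem, which fell (26.5 to 22.5 CPM, log2 fold change -0.24, SE 0.070, edgeR adjusted p = 0.0423). Between the stages 15 of the 21 were lower and 3 higher at E12.5, where 67.5% of all genes differed, with a median of -0.80.

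Of the 11 downstream pallial genes, 0 were called by edgeR in the E12.5 mutants. At an unadjusted p under 0.05 there were 3 in Chd8neo/neo and 0 in the others. The medians were -0.10 in Chd8neo/neo, -0.039 in Chd8neo/- and 0.037 in Chd8+/-. In cKO 1 rose, Mfap4, a microfibril-associated gene expressed in the early cortex (26.1 to 32.5 CPM, log2 fold change 0.32, SE 0.079, edgeR adjusted p = 0.0275), and 1 fell, Id4, an inhibitor of basic helix-loop-helix factors (248 to 181 CPM, log2 fold change -0.46, SE 0.10, edgeR adjusted p = 0.0204), with a median of 0.012. The mesenchyme and meninges markers were also higher in cKO, and their part in the Mfap4 value was not tested. Between the stages 9 of the 11 were higher at E12.5 and 1 lower, with a median of 2.45.

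Markers of cell types moved in some of the same comparisons. Summed neuronal markers were 3161 to 3786 CPM in Chd8+/+, 3297 to 3822 CPM in Chd8+/-, 2567 to 3022 CPM in Chd8neo/neo and 2858 to 3247 CPM in Chd8neo/-. Of the 6 markers, Dcx and Map2, a pair of microtubule-associated genes of young neurons, fell in Chd8neo/neo (log2 fold changes -0.42 and -0.32, edgeR adjusted p = 0.00976 and 0.00842) and in Chd8neo/- (-0.34 and -0.21, adjusted p = 0.0174 and 0.0411). Of the 6 radial glia markers, Sox2 rose in Chd8neo/neo, where the summed level was 2463 to 2859 CPM against 2469.6 to 2687 CPM in Chd8+/+. The part of the balance of progenitors and neurons in the values of the 9 patterning genes was not tested. Of 4 globin genes, transcripts of red blood cells, 2 rose in Chd8neo/- from the wildtype mean, Hba-x (885 to 1697 CPM, log2 fold change 0.94, SE 0.25, edgeR adjusted p = 0.0433) and Hbb-bh1 (148 to 452 CPM, log2 fold change 1.61, SE 0.41, edgeR adjusted p = 0.0425). Hbb-y (1966 to 3016 CPM, log2 fold change 0.62, SE 0.20, edgeR adjusted p = 0.0806) and Hba-a1 (307 to 356 CPM, log2 fold change 0.21, SE 0.21, edgeR adjusted p = 0.591) did not pass, and 0 of the 4 were called in Chd8+/-, Chd8neo/neo or cKO. Their part in the values of the patterning genes was not tested. Of the 5 endothelial markers 1, Kdr, was lower in Chd8neo/neo.

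Over the marker lists other than blood, 75 marker genes were tested at E12.5, and edgeR called 0 in Chd8+/- (4 at an unadjusted p under 0.05), where 0.0213% of all genes were called, 4 in Chd8neo/neo (12), where 8.16% of all genes were called, and 2 in Chd8neo/- (8), where 11.5% were. At E10.5 it called 11 of 72 in cKO (20), where 11.4% of all genes were called. Some sums separated a mutant from wildtype, a separation of 3 libraries from 3 that was not tested. In the hem, Cajal-Retzius, microglial and midbrain lists no single marker passed edgeR's test in an E12.5 mutant. In the endothelial list Kdr did so in Chd8neo/neo. The 8 hem, choroid plexus and dorsal midline markers summed to 135 to 214 CPM in Chd8+/+, 180.5 to 216 CPM in Chd8+/-, 175 to 240.0 CPM in Chd8neo/neo and 228 to 254 CPM in Chd8neo/-, where every library lay above wildtype. The 6 Cajal-Retzius markers summed to 290.1 to 334 CPM in Chd8+/+, 295 to 324 CPM in Chd8+/-, 229.8 to 283.9 CPM in Chd8neo/neo and 263 to 286 CPM in Chd8neo/-, so both hypomorphs lay below wildtype. The 5 microglial markers summed to 26.3 to 28.1 CPM in Chd8+/+, to 22.7 to 26.3 CPM in Chd8+/-, to 19.8 to 25.3 CPM in Chd8neo/neo, below wildtype, and to 21.8 to 27.5 CPM in Chd8neo/-. Over all 12 libraries, summed levels lay at 187 to 235 CPM for the 5 endothelial markers, 2.60 to 8.30 CPM for the 7 midbrain and isthmus markers, 4.54 to 6.26 CPM for the 7 eye markers and 5.19 to 10.5 CPM for the 5 surface ectoderm markers. Within these, the endothelial sums were 210.4 to 213 CPM in Chd8+/+, 187 to 198 CPM in Chd8+/- and 187 to 206 CPM in Chd8neo/neo, and the midbrain and isthmus sums were 4.87 to 5.85 CPM in Chd8+/+ and 3.00 to 4.08 CPM in Chd8neo/-, in each case without overlap with wildtype. In cKO, 2 of the dorsal midline markers rose (Lmx1a and Bmp4), with sums of 293 to 398 CPM against 253 to 296 CPM in Ctrl. Calls in cKO were also made for Gsx2 of the ventral telencephalon, Pax8 of the midbrain and isthmus, Tyr of the eye and Ndnf of the Cajal-Retzius list, all lower, and for Cdh5 of the endothelium and Cx3cr1 of the microglia, both higher. The list medians of log2 fold change in cKO were -0.56 (ventral telencephalon), -0.20 (midbrain and isthmus), -0.25 (eye) and 0.26 (Cajal-Retzius). Ndnf thus went against its list median. Cajal-Retzius sums overlapped, at 88.1 to 111 CPM in cKO and 86.3 to 98.1 CPM in Ctrl. So did midbrain and isthmus sums, at 33.8 to 53.3 CPM in cKO and 28.02 to 49.3 CPM in Ctrl. Diencephalon, neuron, radial glia and surface ectoderm markers gave 0 calls in cKO. Their part in the values of the 9 genes was not tested.

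Genes whose log2 CPM followed Pax6, Dmrta2 and Emx2 most closely over the 12 E12.5 libraries were sought among the 10248 genes with a mean of at least 10 CPM. For Pax6 they were Nsun2 (Pearson r = 0.95), Slc16a6 (0.95) and Gm14230 (0.93). For Dmrta2 they were Ppp5c (0.97), Maz (0.95) and Fzd2 (0.95). For Emx2 they were Topbp1 (0.95), Stk39 (0.94) and Lrrn1 (0.93). The points share libraries and genotypes, and the values are a description with no test.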

How the data were processed

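RNA was sequenced as paired-end reads from 18 libraries, each run 2 times. The authors trimmed reads with Trim Galore 0.4.1, aligned them to GRCm38.p4 with TopHat2 2.1.0, counted them on genes with featureCounts 1.5.0 and deposited raw counts per gene and run, without normalization. Per the file headers, counts at E12.5 were made without the strand option, and at E10.5 this setting is not given in the sources used here. All 36 columns were used, and the runs of a library were summed. Same-group libraries differed by more than sampling noise (chi-square of 5.53 to 34.8 per degree of freedom).

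Counts were tested in R 4.3.3 with edgeR 4.0.16 (robust quasi-likelihood F-test, filterByExpr, TMM, Benjamini-Hochberg adjustment over all genes tested, threshold 0.05). E12.5 genotypes were fitted in 1 model and E10.5 in another, with group as the term, and the stage comparison and the difference of effects in joint fits. All 4 kinds of fit were tested on simulated data. Alternatives were DESeq2 1.42.0, RLE scaling, no filter, a replicate block, a sex-linked covariate, the 2 groups alone and each library left out. The p-values measure the spread between separate embryos at E12.5 and between pools of 2 embryos at E10.5.

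The 9 genes, the lists of related and marker genes and the tests were chosen with earlier results of these data known. Named are all 9 genes, list members called in Chd8neo/neo, Chd8neo/- or cKO (at most 4 per list and comparison, by smallest adjusted p), the 3 genes most like each of 3 members, and marker genes that were called, which were named after their values were seen. The blood marker list is not reported here as a whole. Symbols were found for 46005 of 46603 identifiers. The replicate numbers were checked for pairing by the correlation of deviations from group means, and only Chd8+/- with Chd8neo/neo exceeded 0.1 in all pairs.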

Additional observations from a re-analysis of the deposited data

Results flagged for a closer look

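Differences between the effects of pairs of mutants on the 9 genes were tested directly, 4 pairs for each gene and 36 tests in all, with p-values adjusted over all genes of each test, and 2 passed. The Dmrta2 level differed between Chd8neo/neo and Chd8+/-, by 0.38 on the log2 scale (SE 0.089, edgeR adjusted p = 0.0329), higher in all 3 Chd8neo/neo libraries than in all 3 Chd8+/- libraries. It was called in 10 of 18 alternatives and was 0.27 without Chd8+/- replicate 2. The Otx2 effect of the cKO at E10.5 and that of Chd8neo/- at E12.5 differed by -0.52 (SE 0.12, edgeR adjusted p = 0.0246), and this was called in 10 of 16 alternatives.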

How the results depend on the processing

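Over 81 fold changes of the 9 genes and their alternatives, 1188 of 1296 values kept their direction and their side of the threshold, 20 lost a call, 19 gained one and 69 changed sign. The number of the 9 genes called was the same under RLE scaling and without the filter on low counts in every comparison. In Chd8neo/neo against Chd8+/+, where 2 were called, DESeq2 called 4 and a fit of the 2 groups alone called 1, and leaving out single libraries gave 0 to 3. In Chd8neo/- against Chd8+/+, with 0 called, the 2 groups alone gave 1 (Otx2), and leaving out libraries gave 0 to 1. In Chd8neo/neo against Chd8+/-, with 1 called, DESeq2 gave 3, the sex-linked covariate 0, the 2 groups alone 0, and single libraries left out 0 to 2. In cKO against Ctrl, with 1 called, DESeq2 gave 2, the replicate block 2, and single libraries left out 1 to 2. For the difference of the cKO and Chd8neo/- effects, with 1 called, DESeq2 gave 2, and single libraries left out 0 to 2. A fit of fewer libraries has fewer degrees of freedom, and the cause of the other changes was not tested.

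The values that changed sign were called neither with all libraries nor in the fit that reversed them. Nr2f2 in Chd8neo/neo against Chd8+/+ was -0.0097 without the filter, -0.012 with the replicate block and -0.023 with the sex-linked covariate. Nr2f1 in Chd8neo/- against Chd8+/+ was 0.021 with that covariate, and Emx2 in the difference of effects was 0.0047 in DESeq2 and 0.0047 under RLE scaling. The lowest and highest values with single libraries left out follow for each result that changed sign. In Chd8+/- against Chd8+/+ they were -0.18 and 0.10 for Emx1, -0.061 and 0.025 for Emx2, -0.045 and 0.13 for Lhx2, -0.079 and 0.088 for Otx1, -0.040 and 0.31 for Otx2, -0.018 and 0.063 for Nr2f1, -0.090 and 0.24 for Nr2f2 and -0.050 and 0.11 for Dmrta2. In Chd8neo/neo against Chd8+/+ they were -0.16 and 0.084 for Nr2f2. In Chd8neo/- against Chd8+/+ they were -0.045 and 0.036 for Nr2f1 and -0.041 and 0.088 for Nr2f2. In Chd8neo/neo against Chd8+/- they were -0.061 and 0.29 for Otx2 and -0.26 and 0.087 for Nr2f2. In Chd8neo/- against Chd8neo/neo they were -0.23 and 0.084 for Emx1, -0.13 and 0.0100 for Lhx2, -0.026 and 0.16 for Otx2 and -0.045 and 0.20 for Nr2f2. In Chd8neo/- against Chd8+/- they were -0.055 and 0.13 for Lhx2, -0.0017 and 0.35 for Otx2 and -0.20 and 0.13 for Nr2f2. In cKO against Ctrl they were -0.047 and 0.12 for Lhx2, -0.036 and 0.12 for Nr2f1, -0.090 and 0.29 for Nr2f2 and -0.023 and 0.18 for Dmrta2. In the difference of the cKO and Chd8neo/- effects they were -0.073 and 0.077 for Emx2, -0.12 and 0.060 for Lhx2, -0.011 and 0.15 for Nr2f1 and -0.11 and 0.27 for Nr2f2.

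The replicate numbers pair libraries by the correlation rule only between Chd8+/- and Chd8neo/neo (0.11, 0.20 and 0.20), and the labels give no shared litter or day. The block moved no call of the 9 genes in that comparison, and otherwise added Pax6 in cKO against Ctrl (adjusted p = 0.0221). Counts over all genes moved more: without Chd8neo/neo replicate 3 they were 2605 for Chd8neo/neo against Chd8+/+ (1534 with all libraries) and 2100 against Chd8+/- (994), without Chd8neo/neo replicate 2 the latter was 23, and without cKO replicate 2 cKO against Ctrl gave 538 (2110). With the 2 groups alone the first was 430. DESeq2 called 20 genes in Chd8+/- (4 by edgeR), 35 between the hypomorphs (3), 1712 between Chd8neo/- and Chd8+/- (1021 by edgeR, and 244 without Chd8neo/- replicate 1) and 1801 for the difference of effects (1065 by edgeR, and 339 without cKO replicate 2). Without Chd8neo/- replicate 2, Chd8neo/- against Chd8+/+ gave 1015 (2158).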
